A study of Mus musculus with 14 samples.

Results

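Evolving leukaemias from mice on doxycycline (Dox) were compared with independent leukaemias from mice without it, which asks whether independence from Lmo2 that is acquired reaches the state of independence that is present from the start. The comparison used 6 of the 14 RNA sequencing libraries of the series, chosen by their labels, with 3 libraries on each side. Values of evolving tumours are given in the order VTL-153, then VTL-25, then VTL-21, and those of independent tumours in the order VTL-44, then VTL-33, then VTL-81. All are T-cell leukaemias of the mouse, named VTL, that were induced by the blood progenitor gene Lmo2. Leukaemias had first grown in irradiated C57BL/6-Ly5.1;FVB F1 mice injected with thymocytes. Frozen cells were then injected into C57BL/6-Rag1-/- hosts, which make no mature T or B cells of their own. Donor tumour cells, positive for both CD45.1 and CD45.2, were sorted from the spleens of these hosts, some of which had food pellets with Dox at 600 mg/kg. The other groups, used here for reference, were evolving tumours of the same numbers without Dox (3 libraries), independent tumours of the same numbers with Dox (3) and 2 dependent tumours without Dox (VTL-24, then VTL-19). Each library stands for 1 transplanted tumour, and the labels do not say whether a tumour was 1 clone. Libraries of a tumour with and without Dox are parallel samples, not a time course. The direction of Dox on the transgene is not given in the labels used here, but Lmo2 counts were lower with Dox in all 6 tumours sequenced both ways. Class and Dox differ together between the groups compared, so their parts cannot be told apart in that comparison alone.

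Lmo2 is a small adaptor protein that binds no DNA itself. It joins basic helix-loop-helix factors such as Tal1 or Lyl1 to Gata factors through Ldb1, on DNA that carries E boxes (CANNTG) and GATA sites, and in blood it maintains stem and progenitor genes. In thymocytes an Lmo2 transgene keeps such genes on and gives the cells self-renewal before they turn leukaemic. Ikaros (Ikzf1), named in the title of the series, is a zinc finger factor that directs lymphoid differentiation and is lost in many lymphoid leukaemias.

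3 genes of the progenitor programme carried the pattern described below, and their promoters are shown for the motifs that the Lmo2 complex is known to bind. Cpa3 encodes a protease of mast cells and early progenitors, Lyl1 the partner of Lmo2 in T-cell leukaemia, and Hhex a homeobox factor of progenitors. The sequences are from RefSeq on GRCm38.p6, 250 bases before to 50 bases after the gene start, 5′ to 3′ on the gene's strand. Capitals mark the motifs CANNTG and GATA, the latter read on both strands (GATA or TATC), and no marked bases were shared between them.
Cpa3 (chr3:20242132-20242431, minus strand): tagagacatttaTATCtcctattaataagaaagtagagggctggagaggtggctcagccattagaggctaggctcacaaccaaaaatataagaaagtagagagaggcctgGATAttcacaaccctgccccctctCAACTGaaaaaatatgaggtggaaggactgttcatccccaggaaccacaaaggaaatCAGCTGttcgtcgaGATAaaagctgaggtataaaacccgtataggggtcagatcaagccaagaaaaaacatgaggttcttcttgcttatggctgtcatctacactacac
Lyl1 (chr8:84701207-84701506, plus strand): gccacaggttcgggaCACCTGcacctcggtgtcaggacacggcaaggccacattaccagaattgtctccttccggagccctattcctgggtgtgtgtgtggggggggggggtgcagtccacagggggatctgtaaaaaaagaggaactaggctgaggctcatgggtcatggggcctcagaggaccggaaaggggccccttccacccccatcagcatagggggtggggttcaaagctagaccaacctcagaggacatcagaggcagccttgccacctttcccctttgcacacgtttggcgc
Hhex (chr19:37434591-37434890, plus strand): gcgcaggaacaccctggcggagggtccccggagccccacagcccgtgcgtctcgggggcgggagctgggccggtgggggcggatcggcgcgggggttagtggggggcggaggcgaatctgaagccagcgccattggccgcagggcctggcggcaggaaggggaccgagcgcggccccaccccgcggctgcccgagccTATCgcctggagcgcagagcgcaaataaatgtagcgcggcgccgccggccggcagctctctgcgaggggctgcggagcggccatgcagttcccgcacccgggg
The Cpa3 window held 2 CANNTG and 3 GATA matches, the Lyl1 window 1 CANNTG and no GATA match, and the Hhex window 1 GATA and no CANNTG match. Both motifs are common: of 32851 promoters of this length 72.3% held a CANNTG and 57.9% a GATA match, so a match describes the sequence and shows no binding.

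All 6 libraries had all 8 T cell markers searched (Cd3d, Cd3e, Cd3g, Cd247, Lck, Cd2, Cd5 and Thy1), at 85.7 to 1525 CPM (counts scaled to library size, with TMM factors). Deposited counts summed to 19933093 to 23202839 per library, and 7 mitochondrial genes held 1.62% to 4.92% of them. Markers of other cell types were unevenly spread. The 4 B cell markers in the table summed to 7913 CPM in VTL-21 with Dox, of which Ighm made up 6275 and Igkc 1627, against 93.8 to 780 CPM in the other 5 libraries, and the other 2, Cd79b and Blnk, were at most at 28.9 CPM in any of the 6. The 16 myeloid markers summed to 1585 CPM in VTL-44 without Dox, led by S100a9 at 609 CPM, against 22.2 to 238 CPM in the other 5. Ighm also reached 654 CPM in VTL-25 with Dox and 779 in VTL-81. Erythroid markers summed to 189 CPM in VTL-21 and to 0.961 to 40.3 CPM in the other 5 libraries. Xist, the RNA of the inactive X chromosome, stood at 1977 to 2699 CPM in the evolving libraries and 1909 in VTL-44, but at 4.34 in VTL-33 and 8.80 in VTL-81, and the Y-linked Ddx3y was high only in VTL-81, at 95.4 CPM. In such bulk samples, fewer cells of a type and less RNA per cell cannot be told apart. The libraries were of cells sorted as donor cells. Whether host cells remained, and what part other cells had in the results, was not tested. The main counts are given with and without VTL-21 and VTL-44.

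Some libraries stood closer to those of another tumour number than to those of their own. Evolving VTL-153 and VTL-25 without Dox had a root mean square log2 difference of 0.583, less than any pair of libraries of 1 tumour (0.618 to 1.39). These 2 libraries and VTL-21 without Dox also shared Trbv24 and Trbv13-1 as their leading T cell receptor beta segments. VTL-25 with Dox instead had Trbv5 at 99.6% of its Trbv total, and stood 1.39 from the library of VTL-25 without Dox. Each evolving library with Dox was closer to its nearest independent library without Dox than to its own without Dox. VTL-21 was 0.940 from VTL-44 (own 1.18), VTL-153 1.225 from VTL-33 (own 1.302) and VTL-25 1.266 from VTL-33. Other pairs between these groups reached 1.525. Such nearness was not particular to independent libraries. VTL-21 with Dox was also closer to VTL-153 and VTL-25 without Dox (1.122 and 1.149) and to dependent VTL-19 (1.177) than to its own. VTL-25 with Dox was closer to VTL-153 without Dox (1.379) than to its own (1.393). Whether the libraries of VTL-25 come from 1 clone, and whether the evolving tumours without Dox are independent of each other, was not tested. Counts that use evolving tumours without Dox treat them as 3 tumours. The edgeR calls are also given without VTL-153 and without VTL-25, while other counts and medians are given with all 3 only.

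No gene passed the test between evolving tumours with Dox and independent tumours without Dox. Of 12050 genes tested with edgeR's quasi-likelihood test, 0 had an adjusted p under 0.05 (0.0%), and the lowest adjusted p was 0.998. An unadjusted p under 0.05 was found for 464 genes (3.85%), 215 higher (1.78%) and 249 lower (2.07%) in the evolving tumours. This count was 894 (7.37%) without VTL-21, 951 (7.84%) without VTL-44 and 1191 (9.98%) without both, but 289 (2.37%) without VTL-81. The limma voom test also called 0 genes, and DESeq2 called 55 (0.471% of 11675), of which 16 were higher (0.137%) and 39 lower (0.334%). The evolving tumours without Dox, against the same 3 independent libraries, gave 32 called genes of 12167 (0.263%), 22 higher (0.181%) and 10 lower (0.0822%) in the evolving tumours, with 1962 (16.1%) at an unadjusted p under 0.05. DESeq2 called 1145 there (9.48%) and limma voom 8 (0.0658%). These comparisons share the independent libraries, and the change in the count was not tested. The 32 rested on the tumours included, since the count was 0 when VTL-25 was left out, 3 for VTL-153, 10 for VTL-33 and 269 for VTL-44. In the comparison with Dox, leaving out VTL-21 gave 1 call and leaving out VTL-21 and VTL-44 together gave 2. The 3 evolving libraries lay above all 3 independent ones for 556 genes (4.61%) and below them for 501 (4.16%).

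Missing the threshold did not show that the groups were alike, so the size of the differences was also counted. The 95% interval of the log2 difference lay within 1 unit (2-fold either way) for 6287 of 12050 genes (52.2%), and it lay wholly beyond 2-fold for 45. How many genes could be placed depended on their level. Within 2-fold were 0 of 1784 genes with a mean under 4 CPM, 619 of 2754 (22.5%) from 4 to 20, 3531 of 4897 (72.1%) from 20 to 100, and 2137 of 2615 (81.7%) from 100 CPM up. The estimate itself was 2-fold or more for 1251 genes (10.4%), and 156 of these reached 8-fold (a log2 difference of 3). The corresponding numbers for evolving tumours without Dox were 1981 (16.3%) and 428. Without VTL-21 the count at 2-fold or more was 1741, without VTL-44 1569 and without both 1782. The count within 2-fold was then 5031, 5504 and 4504.

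**Figure D1:**
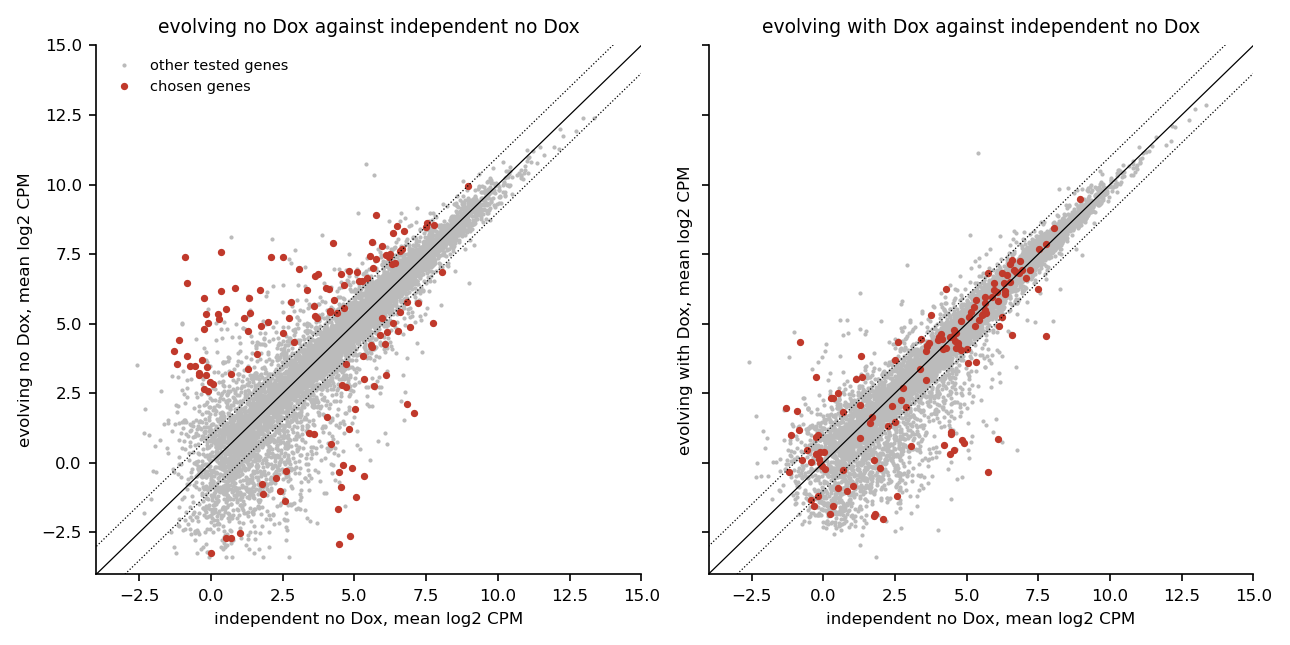
Mean log2 CPM of 3 evolving libraries (y axis) against that of 3 independent libraries without Dox (x axis), for evolving tumours without Dox (left) and with Dox (right). Each point is 1 tested gene, the solid line marks equal levels and the dotted lines 2-fold. Red points are the 133 tested genes among the 166 called between evolving tumours without Dox and independent tumours with Dox. They lie away from the line on the left and closer to it on the right. The evolving libraries on the left chose these genes, so their distance from the line there was set in part by the choice.

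Cpa3, Hhex, Lyl1 and Erg, described for their pattern after their values were seen, were high in dependent tumours and in evolving tumours without Dox and low in both groups compared. Cpa3 (ENSMUSG00000001865), with E boxes and GATA motifs in the promoter window above, stood at 230 and 535 CPM in the dependent tumours, and at 80.4, 246 and 250 CPM in the evolving ones without Dox. With Dox the evolving tumours had 0, 0.198 and 0.442 CPM, beside 1.04, 14.99 and 4.36 CPM in the independent tumours without Dox. Evolving tumours with Dox thus lay below every independent library, with a log2 difference of -4.96 (SE 1.48, 95% interval -8.50 to -1.42, adjusted p = 0.998 by edgeR). By DESeq2 this difference passed, with an adjusted p of 0.0428.

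Hhex stood at 64.3 and 38.4 CPM in the dependent tumours and at 24.9, 69.0 and 39.3 CPM in evolving ones without Dox, but at 0, 0.0991 and 1.08 CPM with Dox and at 3.13, 0.478 and 0.819 CPM in independent tumours. Lyl1 was at 52.0, 105 and 102 CPM in evolving tumours without Dox and at 0.860, 0.644 and 5.45 CPM in those with it, beside 10.6, 3.30 and 2.42 CPM in the independent ones. Both genes overlapped between evolving tumours with Dox and independent tumours, with wide intervals (-5.54 to 1.76 for Hhex and -3.67 to 1.22 for Lyl1 on the log2 scale). The log2 difference of Hhex was -1.89, but -4.74 without VTL-21 and -0.72 without VTL-44, and that of Lyl1 was -1.23, but -2.85 and -0.30. Erg, an ETS factor of blood stem cells, ranged from 18.8 to 47.4 CPM in evolving tumours lacking Dox, and at most at 0.147 CPM with Dox and 2.93 CPM in the independent tumours, too low to enter the test. Nfix, a stem cell factor, ranged from 0.556 to 1.57 CPM against 1.43 to 4.44, and Kit, the stem cell factor receptor, from 0.0495 to 10.7 CPM against 0.862 to 36.2. Of 20 listed early progenitor genes, 14 were in the table and 9 were tested. None passed by edgeR and 1, Cpa3, by DESeq2, 2 estimates were positive and 7 negative, and their median was -1.56, beside -0.02 over all tested genes. This median rested on single libraries, at -2.33 without VTL-21, -0.30 without VTL-44 and, over 12 genes, -0.53 without VTL-25 and -0.57 without VTL-153. Other listed members went another way. Lmo4, a relative of Lmo2, was at 104 and 69.8 CPM in dependent tumours and at 60.8 to 179 CPM in evolving tumours without Dox, but at 428, 169 and 364 CPM with Dox and at 469, 113 and 63.2 CPM in independent ones. Spi1, a myeloid and progenitor factor, stood at 31.0 CPM in VTL-44 without Dox and at 11.4 CPM in VTL-21 with Dox. Ldb1, the bridging factor of the complex, differed little, at 249 to 298 CPM against 218 to 296 (log2 difference 0.12, interval -0.30 to 0.55).

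Lmo2 itself (ENSMUSG00000032698) was spread widely among the independent tumours. It stood at 0.405, 0.198 and 3.24 CPM in the evolving tumours with Dox and at 9.28, 600.3 and 27.2 CPM in the independent ones without it, and the groups did not overlap. The log2 difference was -7.36 (SE 2.07, interval -12.34 to -2.38) and did not pass (edgeR adjusted p = 0.998). Without VTL-33 it was -3.83. VTL-33 held Lmo2 at a level like that of evolving tumours without Dox (303 to 708 CPM), while its Cpa3, Hhex and Lyl1 were at 14.99, 0.478 and 3.30 CPM.

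**Figure D2:**
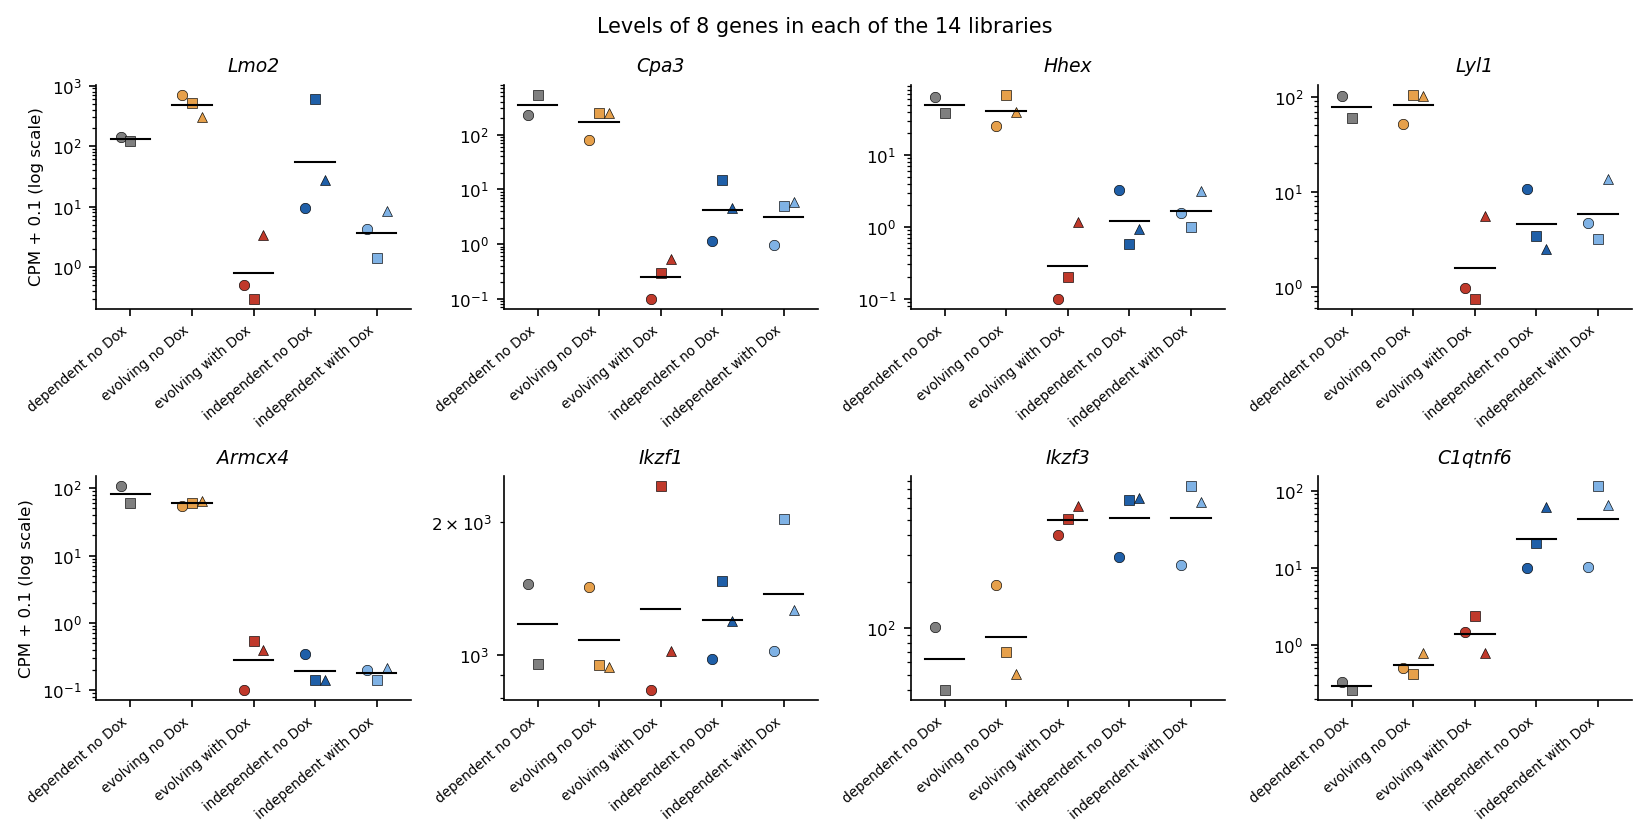
Levels of 8 genes as CPM plus 0.1 on log axes. Each point is 1 library, bars are geometric means, and shapes mark tumours (circle VTL-153, VTL-44 or VTL-24, square VTL-25, VTL-33 or VTL-19, triangle VTL-21 or VTL-81). Cpa3, Hhex, Lyl1 and Armcx4 are high in dependent and evolving tumours without Dox and low in the other groups, Ikzf3 shows the reverse, and C1qtnf6 is high in independent tumours and no higher than 2.23 CPM in evolving tumours with Dox.

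To compare the groups on genes that separate the classes, genes were chosen in libraries outside the comparison, though of the same tumours. Independent libraries with and without Dox of 1 tumour had root mean square log2 differences of only 0.618 to 0.741. The level of a chosen gene in independent tumours was thus largely set by the choice. Between evolving tumours without Dox and independent tumours with Dox, edgeR called 166 genes (1.37% of 12153), 118 higher (0.971%) and 48 lower (0.395%) in the evolving tumours. DESeq2 called 1196 (9.89%) and limma voom 65 (0.535%). Of the 166, 133 entered the test of evolving tumours with Dox against independent tumours without Dox. None was called by edgeR and 9 by DESeq2 (2 higher and 7 lower), 24 (18.05%) had an unadjusted edgeR p under 0.05, against 3.85% of all tested genes, and 26 did not overlap between the groups, 8 with the evolving tumours above and 18 with them below, where 8.77% of all tested genes did not overlap. The median size of their log2 difference was 0.68, beside 0.23 over all tested genes, and it was 2-fold or more for 49. For 25 the interval lay within 2-fold. The 33 genes that did not enter the test were all higher in evolving tumours without Dox, with a median of 19.1 CPM there, and 20 of them did not reach 1 CPM in any of the 6 libraries. The number of genes chosen fell to 3 when VTL-25 was left out, 9 for VTL-153, 35 for VTL-81, 51 for VTL-33 and 75 for VTL-21, and was 487 for VTL-44.

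The 6 genes chosen by rule as highest in evolving tumours without Dox were Zfp711, Armcx1, Adamts9, Plagl1, Armcx4 and Dsp, and 5 of the 6 were nearly silent on both sides of the comparison. Armcx4, an armadillo repeat gene of the X chromosome, stood at 53.7, 60.5 and 64.9 CPM without Dox and at 107 and 61.0 in the dependent tumours. It was at 0, 0.446 and 0.295 CPM in the evolving tumours with Dox and at 0.248, 0.0434 and 0.0431 in the independent tumours without it. Plagl1, an imprinted zinc finger gene, had 59.7, 97.2 and 166 CPM without Dox, and at most 0.688 CPM with Dox and 0.130 CPM in the independent tumours. Zfp711 and Armcx1 did not exceed 0.0993 CPM in any of the 6 libraries, nor Adamts9, a secreted metalloprotease, 0.0869 CPM. Dsp, which encodes the desmosome protein desmoplakin, was the exception. It was at 258 CPM in VTL-25 with Dox, the library whose Trbv segment differed, and at 0.202 and 0.540 CPM in VTL-153 and VTL-21, beside 0.199, 5.21 and 0 CPM in independent tumours.

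The 6 chosen as lowest in evolving tumours without Dox were Col1a2, Rgma, Cd163l1, C1qtnf6, Tmem55a and Cers4. With Dox, Col1a2, Rgma and Cd163l1 varied widely among the evolving tumours, while C1qtnf6, Tmem55a and Cers4 were at most at 4.31 CPM. Cd163l1, a scavenger receptor of T cells, was at 0.350, 1.36 and 0.494 CPM without Dox and at 8.55, 91.0 and 2.31 with Dox, beside 16.6, 77.2 and 50.1 CPM in independent tumours. Rgma, a membrane-anchored guidance molecule, had 0, 4.16 and 21.7 CPM with Dox against 48.4, 23.3 and 9.31 CPM, and Col1a2, a collagen chain, 16.1, 1.04 and 0.197 against 10.1, 19.6 and 117 CPM. C1qtnf6, a secreted C1q-related protein, was low with Dox, at 1.37, 2.23 and 0.688 CPM, below all 3 independent libraries at 9.83, 20.6 and 61.6 CPM. Its log2 difference was -4.46 (interval -6.51 to -2.40, edgeR adjusted p = 0.998), and DESeq2 called it with an adjusted p of 9.12e-06. Tmem55a, a phosphoinositide phosphatase, showed the same order, at 0.455 to 4.31 CPM against 12.01 to 41.1. Cers4, a ceramide synthase, was at most at 1.47 CPM in the evolving tumours with Dox and above this only in VTL-44, at 73.2 CPM.

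Each chosen gene was then placed on a scale from the mean of the dependent tumours (0) to that of the independent tumours without Dox (1), in log2 CPM. This could be done for the 139 genes whose ends of the scale were more than 1 log2 unit apart. The median position of evolving tumours with Dox was 0.853, with quartiles of 0.615 and 1.05. Of the 139 genes, 24 were below 0.5, 106 between 0.5 and 1.5 and 9 above 1.5. The 100 genes called lower in independent tumours with Dox than in evolving tumours without Dox had a median of 0.895, and the 39 called higher 0.782. By library these medians were 0.995 in VTL-153, 0.968 in VTL-25 and 0.783 in VTL-21. Placed against the mean of the other 2 independent tumours, the independent libraries had medians of 0.883, 0.923 and 1.12. Evolving libraries in this way overlapped the independent ones, with VTL-21 the lowest of the 6. Libraries of the same independent tumours with Dox chose the genes, so independent positions near 1 were set in part by the choice. The scales also differed, with 137, 145 and 138 genes for the independent libraries and 139 for the evolving ones. Evolving tumours without Dox had -0.0444, -0.0670 and -0.0301, but their libraries chose the genes. Without VTL-21 the median was 0.927, and without both VTL-21 and VTL-44 it was 0.900. Positions are descriptions without a test, and the scale's lower end rests on 2 tumours.

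**Figure D3:**
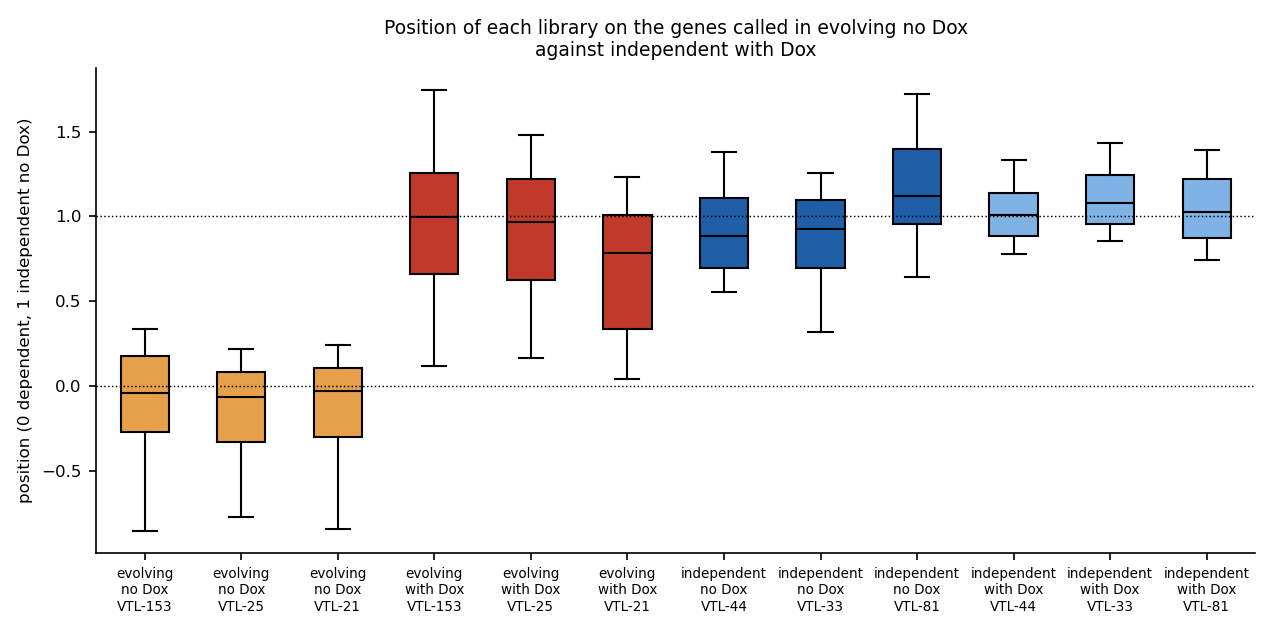
Position of each library on the chosen genes, where 0 is the mean of dependent tumours and 1 that of independent tumours without Dox, in log2 CPM. Boxes span the quartiles over genes with the median as a line, and whiskers run from the 10th to the 90th percentile of genes. Evolving libraries with Dox have medians of 0.783 to 0.995, and independent libraries without Dox, each set against the other 2, 0.883 to 1.12; orange and light blue libraries chose the genes.

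Genes beyond either end of this scale were singled out after their values were seen. Ptk7, a receptor-like kinase of planar cell polarity signalling, stood at 0.405, 1.64 and 6.63 CPM in the evolving tumours with Dox and at 54.4, 79.9 and 74.7 CPM in the independent tumours, a log2 difference of -4.60 (interval -6.90 to -2.30), and DESeq2 called it with an adjusted p of 7.02e-06. Its dependent libraries differed widely, at 0.935 and 49.2 CPM. The position of Ptk7 was -0.608, so evolving tumours with Dox lay beyond the dependent end, away from the independent tumours. Micall2, a Rab effector at cell junctions, lay past the independent level, at 0.0506, 0.149 and 0.442 CPM against 1.84, 6.56 and 2.89 CPM, beside 19.6 to 42.0 CPM in evolving tumours without Dox. Bcas1, a gene known from breast tumours and myelinating cells, was high in the evolving tumours irrespective of Dox. It stood at 34.7, 18.5 and 4.58 CPM without Dox and at 37.0, 35.1 and 6.19 with Dox, and at no more than 0.794 CPM in the independent and 0.187 CPM in the dependent tumours. Both ends of the scale were thus low for Bcas1, so its position of 4.51 rests on small values. The log2 difference of Bcas1, 5.65 (interval 3.59 to 7.71), passed by DESeq2, with an adjusted p of 2.29e-09, and not by edgeR, with an adjusted p of 0.998.

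The 10 genes of smallest p, named on the condition that their groups did not overlap, did not pass by edgeR, while DESeq2 called all 10 (adjusted p 2.29e-09 to 0.0325). Dgke, a kinase that removes diacylglycerol, was at 137, 114 and 133 CPM with Dox against 59.9, 47.5 and 56.1 CPM, a log2 difference of 1.22 (interval 0.82 to 1.62, edgeR adjusted p = 0.998). It was at 116 to 134 CPM in evolving tumours without Dox. Tnik, a kinase of Wnt signalling, stood at 111 to 115 CPM against 42.9 to 66.9, and at 152 to 172 CPM in evolving tumours without Dox. Txk, a Tec family kinase of T cell receptor signalling, was at 72.3, 87.6 and 50.3 CPM against 26.2, 19.9 and 9.31, a log2 difference of 1.91 (interval 0.94 to 2.88). In evolving tumours without Dox it was no higher than in the independent tumour VTL-44, at 25.4, 10.1 and 4.31 CPM. Plcxd2, a phospholipase-like gene, likewise stood at 63.9 to 105 CPM with Dox, at 30.4 to 36.5 CPM without it and at 18.1 to 35.7 CPM in the independent tumours.

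On the lower side, Zcchc11, a uridylyltransferase that tails microRNA precursors such as let-7, stood at 15.3, 27.6 and 32.7 CPM against 80.7, 125 and 88.2 CPM, a log2 difference of -1.98 (interval -2.77 to -1.18, edgeR adjusted p = 0.998). Zadh2, an oxidoreductase, was at 16.8 to 27.4 CPM against 49.6 to 54.1, and Cdc42ep4, a Cdc42 effector of the cytoskeleton, at 35.7 to 41.5 against 56.7 to 87.1. Gstm4, a glutathione transferase, was at 1.19 to 1.47 CPM against 4.57 to 8.67, and at 5.21 to 6.17 CPM in evolving tumours without Dox. Ccdc50, an adaptor in ubiquitin signalling, was at 0.354, 0.545 and 8.64 CPM against 99.9, 128 and 101 CPM. It was the 1 gene called by edgeR without VTL-21, with an adjusted p of 0.00771, against 0.998 with all 6 libraries and 0.0193 by DESeq2. Without both VTL-21 and VTL-44 it was called together with Tcf4 (adjusted p = 0.0398 for both), an E protein at 0.405, 0.347 and 34.4 CPM against 11.7, 62.3 and 68.1 CPM. VTL-21 had the highest B cell and erythroid marker sums, whose part in these values was not tested.

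All 5 members of the Ikaros family overlapped between the groups, as did most genes, since only 8.77% of all tested genes did not. The interval lay within 2-fold for 1 of the 5, so the family was not shown to be alike. Ikzf1 (ENSMUSG00000018654) stood at 833, 2403 and 1023 CPM in the evolving tumours with Dox and at 979, 1472 and 1191 CPM in the independent ones. VTL-25 was the highest of the 6 and VTL-153 the lowest, and the log2 difference was 0.21 (interval -0.80 to 1.21), turning to -0.40 without VTL-25. Counts per gene do not show isoforms, mutations or protein. Ikzf3, which encodes Aiolos, was at 404, 511 and 618 CPM against 289, 676 and 697, a difference of -0.14 (interval -1.01 to 0.74). In evolving tumours without Dox it was at 191, 70.0 and 50.1 CPM, and in the dependent tumours at 102 and 39.6 CPM. Ikzf2, for Helios, was at 84.9 to 242 CPM against 57.4 to 252, Ikzf4 at 1.42 to 3.87 against 0.546 to 7.24, and Ikzf5 at 27.1 to 41.5 against 37.8 to 39.3. The differences of Ikzf2, Ikzf3 and Ikzf5 were small enough to change sign when single tumours were left out, as given at the end.

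In the lists that follow, passing refers to edgeR, and calls by DESeq2 are given where there were any. Since 0 of all 12050 tested genes passed, 0 passing in a list says nothing particular about its members. Counts of intervals within 2-fold stand beside 52.2% of all tested genes, 72.1% of those from 20 to 100 CPM and 81.7% from 100 CPM up. Of 15 T lineage transcription factors 0 passed, 9 estimates were positive and 6 negative, and 7 intervals lay within 2-fold, with a median of 0.10. Myb, a proliferation factor of thymocytes, was at 869, 775 and 540 CPM against 474, 557 and 455, a log2 difference of 0.54 (interval 0.02 to 1.06). Only VTL-21 overlapped the independent tumours, and evolving tumours without Dox were at 871 to 1084 CPM. Of 22 genes of the T cell receptor complex and its proximal signalling 0 passed, though DESeq2 called Txk (adjusted p = 0.00786), 16 estimates were positive, and 13 intervals lay within 2-fold. Of 16 markers of double-positive thymocytes 0 passed, 13 estimates were positive and the median was 0.57.

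**Figure D4:**
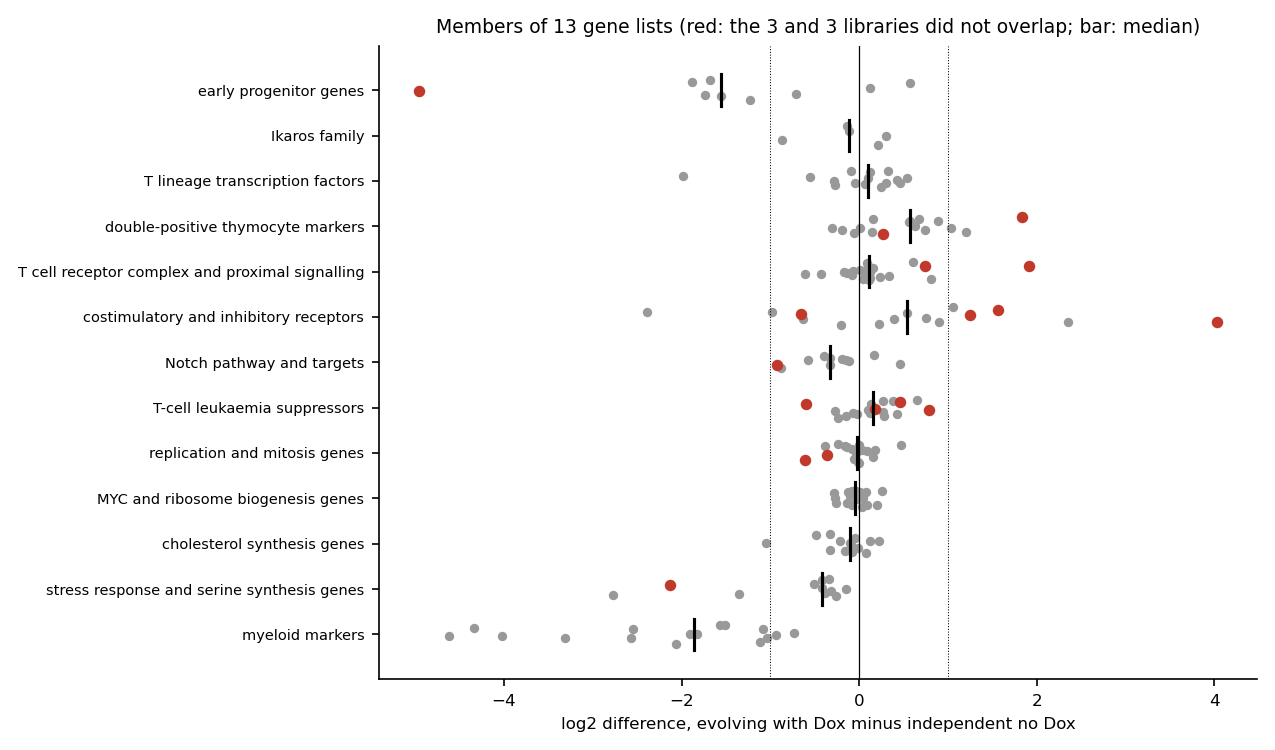
Log2 difference of evolving tumours with Dox minus independent tumours without Dox for the tested members of 13 gene lists. Each point is 1 gene, black bars are list medians, dotted lines mark 2-fold, and red marks genes whose 3 and 3 libraries did not overlap. Replication, ribosome and T cell receptor genes cluster at 0, while early progenitor and myeloid markers lie mostly below it; no gene passed the test.

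Receptors of T cell activation were spread widely. Of 15 tested costimulatory and inhibitory receptors 0 passed, 10 estimates were positive with a median of 0.54, and 0 intervals lay within 2-fold. Ctla4, the inhibitory receptor for B7 ligands, stood at 114, 20.3 and 7.17 CPM with Dox against 0.496, 6.60 and 1.42 CPM, a log2 difference of 4.03 (interval 0.76 to 7.30). DESeq2 called it with an adjusted p of 0.0315. The log2 difference was 2.26 without VTL-153. In evolving tumours without Dox it was at 0.315 to 1.70 CPM. Cd200, a ligand that restrains myeloid cells, was at 8.599 to 13.2 CPM against 3.82 to 6.25, and Il21r, the interleukin 21 receptor, at 58.6 to 73.0 against 34.5 to 43.7. Nr4a1, an immediate early gene of receptor signalling, was at 80.4, 53.7 and 94.99 CPM against 53.5, 50.2 and 35.9, whereas Jun was at 20.1, 35.6 and 51.3 CPM against 39.1, 242 and 484. The groups overlapped for Jun, and DESeq2 called it with an adjusted p of 0.0206.

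Of 11 genes of the Notch pathway and its targets 0 passed and 9 estimates were negative, with a median of -0.33. Notch1 itself was at 1532 to 2694 CPM against 1716 to 2583. Notch2 was at 15.7 to 24.6 CPM, below the 28.6 to 46.1 CPM of the independent tumours, a log2 difference of -0.92 (interval -1.57 to -0.27). Of 13 PI3K-AKT genes 0 passed and 6 intervals lay within 2-fold. Irs2, an adaptor of insulin receptor signalling, was at 28.9, 15.0 and 23.1 CPM against 7.15, 10.3 and 16.2, beside 1.75 to 2.38 CPM in evolving tumours without Dox.

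Among 18 T-cell leukaemia suppressors 0 passed and 12 intervals lay within 2-fold, where 52.2% of all tested genes did. Etv6, an ETS repressor, was at 37.7 to 60.3 CPM, below the 64.2 to 80.8 CPM of the independent tumours, and Suz12, a Polycomb subunit, at 368 to 515 CPM, above their 314 to 341 CPM. Kdm6a, an X-linked histone demethylase that escapes X inactivation, was at 144 to 173 CPM against 139 in VTL-44, 71.5 in VTL-33 and 60.1 in VTL-81. The tumours with low Kdm6a were those with low Xist, whose part in the difference was not tested. Cdkn2a, a cell cycle inhibitor locus often deleted in this leukaemia, was at 4.502, 279 and 110 CPM with Dox against 19.0, 3.21 and 4.53. In VTL-153 without Dox it was at 190 CPM. Cdkn1c, another inhibitor, was at 0.202 to 1.38 CPM against 1.99 to 14.1.

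Of 18 replication and mitosis genes 15 had intervals within 2-fold, as did 17 of 20 MYC and ribosome biogenesis genes, close to the 72.1% and 81.7% of all genes from 20 to 100 CPM and from 100 CPM up, with medians of -0.02 and -0.04. Ccnb1, cyclin B1, was at 64.2 to 104 CPM, below the independent tumours at 118 to 136. Of 14 cholesterol synthesis genes 0 passed, 9 intervals lay within 2-fold and the median was -0.10. For evolving tumours without Dox, against the same independent tumours, that median was 0.87, with all 14 estimates positive, 0 passing by edgeR and 5 by DESeq2. All 11 tested genes of stress response and serine synthesis had negative estimates, with a median of -0.41. The median was -0.12 without VTL-81. Against independent tumours with Dox it was 0.05, with 6 positive and 5 negative estimates. Atf5, a stress factor, was below at 11.1 to 21.9 CPM against 28.0 to 166, a log2 difference of -2.13 that was -0.78 without VTL-81. Of 22 interferon-inducible genes 16 estimates were positive with a median of 0.27, and Oasl2 was below, at 5.10 to 9.56 CPM against 11.7 to 22.8. All 16 myeloid markers had negative estimates, with a median of -1.87, and VTL-44 was the highest of the 6 libraries for all 16, S100a8 and S100a9 included. Without VTL-44 the median was -0.66, with 12 negative estimates, and without VTL-21 it was -5.82. The part of these cells in other differences was not tested.

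On average, libraries differed about as much within the evolving group as between groups. Over all tested genes the root mean square log2 difference was 1.29 on average between an evolving library with Dox and an independent library without it (0.940 to 1.53 over 9 pairs), 1.34 between evolving libraries with Dox and 1.16 between independent ones (3 pairs each). Evolving libraries without Dox were on average 1.294 from the independent ones, beside 1.286 with Dox, so over all genes they were about as far. Among themselves they were 0.867 apart, VTL-153 and VTL-25 being the closest. Evolving libraries with Dox were 1.43 from the dependent ones. Pairs of evolving libraries with Dox had 47 to 54 genes above 20 CPM in one and under 0.5 CPM in the other, against 21 to 38 for pairs of independent libraries and 17 to 98 between the groups.

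Set against the same independent tumours with Dox, so that both sides had received it, the evolving tumours again gave 0 calls of 12093 genes by edgeR (0.0%), with 573 (4.74%) at an unadjusted p under 0.05. DESeq2 called 94 (0.784%) and limma voom 1 (0.00827%), Rag1. Without VTL-21, edgeR called 4 genes. The interval lay within 2-fold for 5937 genes (49.1%), and the estimate was 2-fold or more for 1477 (12.2%). Both comparisons share the evolving libraries. Values of the named genes stood side by side as follows: the log2 difference was 5.95 for Bcas1 with Dox on both sides and 5.65 in the comparison above, -5.45 and -4.46 for C1qtnf6, -4.14 and -4.96 for Cpa3, and -1.83 and -7.36 for Lmo2.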

How the data were processed

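Per the submitters' processing notes, the aligner was STAR 2.5.2b, the counter featureCounts and the build mm10. The annotation and strand setting are not given in the sources used here. The deposited values are raw counts per gene that the authors had not normalised, for 12421 genes, all of which reach 1 CPM in 2 or more libraries, with totals of 18214415 to 24048281. In the table, 42 other per-sample columns were not used. GENCODE M21 held 12379 of the identifiers, and RefSeq promoters matched 3 of 3 genes sought.

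The test was that of edgeR 4.0.16 under R 4.3.3 (TMM, minimum count 10, robust quasi-likelihood fit of the 6 libraries compared, Benjamini-Hochberg over all genes tested, threshold 0.05). SE is the size of the log2 difference over the square root of F, and 95% intervals use the fit's total degrees of freedom. Positions and distances use log2 CPM with a prior count of 2. Replicates are tumours of separate labels, and p-values measure only the spread between these samples; 2 evolving libraries without Dox were closer than any pair of libraries of 1 tumour. The groups compared share no tumour. DESeq2 1.42.0, limma 3.58.1 voom, other filters and size factors, fits of 8 or 14 libraries and each tumour left out were alternatives. The tests were tested on simulated data.

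Named were Lmo2 and Ikzf1, up to 5 genes of smallest p in each direction with a mean of at least 4 CPM and groups that do not overlap, up to 2 of smallest p from each of 31 lists, the 6 largest in each direction among the chosen genes, and Ikaros, progenitor and suppressor members. The ranked names skip receptor segments, predicted genes, pseudogenes and those linked to sex. Notch1, S100a8, S100a9, Rag1, Ccdc50, Ptk7 and Micall2 were named after their values were seen. Members and lists were chosen with earlier results of these data known. Some genes that this rule names are not reported here.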

Additional observations from a re-analysis of the deposited data

How the results depend on the processing

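The count of 0 between evolving tumours with Dox and independent tumours without Dox stayed 0 in all alternatives except DESeq2 (55 calls), leaving out single tumours (0 to 1) and leaving out VTL-21 and VTL-44, added after the data were seen (2). With Dox on both sides DESeq2 called 94, limma voom 1 and single omissions 0 to 4. For evolving tumours without Dox, in place of 32, DESeq2 called 1145, limma voom 8, a minimum count of 50 85, the edgeR fit of 14 libraries with no replicate block 82, and single omissions 0 to 269. For the chosen genes, in place of 166, DESeq2 called 1196, limma voom 65, and single omissions 3 to 487. No paired analysis was possible within the comparison because its groups share no tumour, so the replicate block was fitted over 14 libraries with the tumour as a random effect (correlation 0.286). With this pairing the counts were 0, 0 with Dox on both sides, 40 for evolving tumours without Dox and 62 for the chosen genes. The causes were not tested. The median position ran from 0.784, over only 3 genes called at 0.01, to 0.927. With markers of other cell types left out, also added after the data were seen, 0 genes were called. Signs turned for Ikzf1 (-0.40 to 0.48), Ikzf2 (-0.0551 to 0.935), Ikzf3 (-0.425 to 0.0822), Ikzf5 (-0.234 to 0.0524) and Kit (-2.96 to 0.69) when single tumours were left out. At 6 libraries, genes under 4 CPM could not be placed within 2-fold.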

Other observations

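Leading T cell receptor beta segments were partly shared across the tumours compared, with Trbv24 leading on both sides. Among the 12 Trbv segments in the table, Trbv24 led in VTL-153 and VTL-21 with Dox, at 345 and 421 CPM (73.5% and 95.8% of the Trbv total), and Trbv5 led in VTL-25 with Dox at 269.5 CPM (99.6%). Trbv19 led in VTL-44 at 840.0 CPM, Trbv24 in VTL-33 at 326 CPM and Trbv2 in VTL-81 at 1229 CPM. The next segment was Trbv13-2 in VTL-44 (44.1 CPM) and VTL-33 (48.0 CPM), as in VTL-21 with Dox. VTL-25 without Dox had Trbv24 first, at 238 CPM, and Trbv13-1 next, at 59.6 CPM, as had VTL-153 and VTL-21 without Dox. The leading segment of VTL-25 differed between its libraries without and with Dox, whereas those of VTL-153, VTL-21 and the 3 independent tumours did not. In VTL-21 the next segment did differ, being Trbv13-1 at 39.6 CPM without Dox and Trbv13-2 at 7.465 CPM with it. Whether the libraries of VTL-25, or those of VTL-21, come from 1 clone was not tested.

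Of 10 heat shock and handling genes 8 had positive estimates, with a median of 0.13, and of 7 mitochondrially encoded genes 6 had negative ones, with a median of -0.55, led by the higher levels in VTL-44 and VTL-33. Of 13 homing and adhesion receptors 0 passed. Of 12 genes of MHC class I presentation 0 passed and 9 intervals lay within 2-fold, with a median of -0.02.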
